A study of Mus musculus with 2 samples.

Results

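The RNA-binding proteins that set the splicing pattern of adult skeletal muscle were followed in gastrocnemius, a mostly fast-twitch calf muscle of the mouse. The 10 genes were the muscleblind family (Mbnl1, Mbnl2 and Mbnl3), the CELF proteins Celf1 and Celf2, the RBFOX proteins Rbfox1 and Rbfox2, the RNA recognition motif proteins Rbm20 and Rbm24, and quaking (Qk). They were taken by symbol, which matched 10 of the 55536 genes measured. Their values were not used to choose them.

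All RNA came from male adult mice aged 8 to 10 months of the strain labelled 5xFAD/CAST, described as 5xFAD crossed with CAST. 5xFAD mice carry familial Alzheimer transgenes, including mutant human APP, under a neuronal Thy1 promoter, and CAST is a wild-derived inbred strain. Both libraries of total RNA, biological replicates 1 and 2, had the same strain, sex, age and tissue, so they formed 1 group, with no untreated, non-transgenic or younger mice beside them. The labels give each library its own tissue sample but name the same donor entry for both. The spread between these libraries may therefore not be a spread between animals, and no test between conditions was possible. Results are given for each library and as mean ± SD (n = 2).

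The primary transcripts of many muscle genes can be joined in more than one way, and the switch from fetal to adult exons after birth depends on proteins that bind short RNA motifs beside the regulated exons. MBNL proteins favour adult patterns and are sequestered by expanded CUG repeats in myotonic dystrophy, whereas CELF1 often acts in the opposite direction on the same exons. RBFOX proteins bind the motif TGCATG, RBM20 represses exons of the titin gene Ttn, RBM24 activates muscle exons, and quaking binds ACTAA-containing elements. Several of these proteins are themselves made in forms that differ by alternative exons.

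The exons that distinguish the forms of paired family members are shown first, because the largest part of the results concerns them. Each exon is written 5′ to 3′ on the gene's strand from the GENCODE M21 transcripts (mm10). Capitals mark the bases that differ between the paired genes. The 54-base exon of Mbnl1 lies at chr3:60614683-60614736 (+) and its counterpart in Mbnl2 at chr14:120395712-120395765 (+), both wholly coding. Of the 54 bases 46 were the same (85.2%).
Mbnl1 54-base exon: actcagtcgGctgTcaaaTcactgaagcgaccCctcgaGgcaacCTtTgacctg
Mbnl2 54-base exon: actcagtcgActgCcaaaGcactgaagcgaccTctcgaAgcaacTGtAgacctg
Rbfox1 and Rbfox2 each have a pair of coding exons, 40 and 43 bases long, of which nearly every transcript model holds only 1 of the pair. The 40-base exon is known from brain and the 43-base exon from muscle. The 40-base exons lie at chr16:7363865-7363904 (+) in Rbfox1 and chr15:77094451-77094490 (−) in Rbfox2, and shared 34 of 40 bases (85%). The 43-base exons lie at chr16:7369801-7369843 (+) and chr15:77091812-77091854 (−), and shared 27 of 43 bases (62.8%).
Rbfox1 40-base exon: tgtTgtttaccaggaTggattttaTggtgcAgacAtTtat
Rbfox2 40-base exon: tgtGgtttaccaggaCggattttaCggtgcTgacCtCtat
Rbfox1 43-base exon: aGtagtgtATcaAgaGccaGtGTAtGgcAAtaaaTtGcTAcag
Rbfox2 43-base exon: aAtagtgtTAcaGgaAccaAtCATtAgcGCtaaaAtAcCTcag

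Between the genes, levels were compared in TPM, a unit of relative abundance that divides read counts by transcript length and scales each library to the same sum. Of the 10 genes, 9 were at 10 TPM or more in both libraries, against 18.978% of the 22015 nuclear protein-coding genes. Their median was 62.9 TPM, whereas the median coding gene at 1 TPM or more in both libraries was at 8.09 TPM.

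Mbnl1 (chr3:60472830-60629750, +), the main muscleblind protein of adult muscle, was at 268 TPM in replicate 1 and 254 TPM in replicate 2 (261 ± 10.0, SD, n = 2). It was the highest of the group, rank 189 among nuclear coding genes, with 98.1% of the expressed ones below it. Mbnl2 (chr14:120275669-120431697, +), its paralog, was at 102 and 87.1 TPM (94.5 ± 10.5, SD, n = 2). Both libraries of Mbnl1 thus lay above both of Mbnl2, by 2.63 times in replicate 1 and 2.92 times in replicate 2. Mbnl3 (chrX:51117269-51206532, −), known from myoblasts and regenerating muscle rather than mature fibres, was at 0.10 and 0.04 TPM. Those levels rested on 8 and 5 counts, too few to place it beyond saying that it was far below the others. Within the family Mbnl1 held 73.5 ± 1.44% of TPM and Mbnl2 26.5 ± 1.43% (SD, n = 2).

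The CELF genes were near each other. Celf2 (chr2:6539694-7509563, −) was at 36.2 and 30.6 TPM (33.4 ± 4.02, SD, n = 2). Celf1 (chr2:90940382-91019497, +), the family member that rises in myotonic dystrophy type 1, was at 29.5 and 26.04 TPM (27.7 ± 2.41, SD, n = 2). Every Celf2 value here lay above every Celf1 value. On counts, however, the genes were nearly equal, Celf1 having 49.5 ± 2.51% of the reads of the pair (SD, n = 2). In TPM its share was 45.4 ± 0.84% (SD, n = 2).

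Rbfox1 (chr16:5885355-7411526, +) was at 120 and 106 TPM (113 ± 9.75, SD, n = 2). Rbfox2 (chr15:77078990-77307004, −), the broadly expressed paralog, was at 25.2 and 24.1 TPM (24.6 ± 0.81, SD, n = 2). Rbfox1 therefore took 82.1 ± 0.79% of the TPM of the pair (SD, n = 2). Its neuronal paralog Rbfox3, the antigen NeuN, was at 0.09 and 0.12 TPM.

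Among the remaining regulators, Qk (chr17:10202601-10319854, −) was at 111 and 110 TPM (110 ± 0.71, SD, n = 2). Rbm24 (chr13:46418434-46431095, +), a muscle-restricted splicing factor, was at 97.7 and 84.2 TPM (90.9 ± 9.55, SD, n = 2). Rbm20 (chr19:53677306-53867080, +), best known for titin splicing in heart, was at 37.7 and 32.02 TPM (34.9 ± 4.04, SD, n = 2). In the full order the ranges of Rbfox1 and Qk overlapped, as did those of Mbnl2 and Rbm24 and those of Rbm20 and Celf2. All other neighbours were apart in both libraries, with the smallest such gap between Celf1 and Rbfox2.

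**Figure D1:**
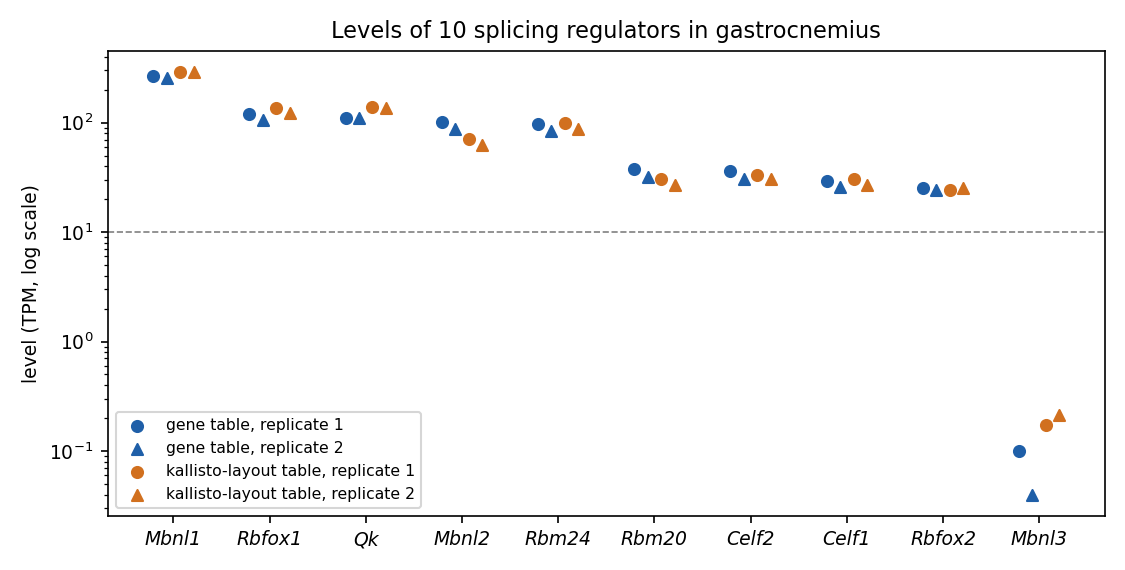
Level of each gene in TPM (log axis) in the 2 libraries, from the gene table and from the kallisto-layout transcript table summed per gene. The dashed line marks 10 TPM. 9 genes sit above it in both libraries and both tables, and Mbnl3 sits below 1 TPM.

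The kallisto-layout table, a second quantification over transcripts, gave these levels within 0.32 on the log2 scale (the size of difference counted throughout) for 8 of the 9 genes. Mbnl2 was the exception, at 71.3 and 62.0 TPM there, or 0.705 of its level in the gene table. A difference of at least 0.32 on the log2 scale between tables was found for 12.3% of coding genes of 10 TPM or more. With that table Mbnl2 lay below Rbm24 in both libraries, and Mbnl1 was 4.07 and 4.69 times Mbnl2. There the range of Celf1 (30.30 and 26.7 TPM) overlapped those of Celf2 (33.5 and 30.27 TPM) and Rbm20 (30.7 and 27.2 TPM).

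Quaking's place depended on short transcript models. Restricted to models of at least 1000 bases in the RSEM transcript table, Qk was at 60.9 TPM in replicate 1 and 48.6 TPM in replicate 2. Its mean of 54.7 lay below Mbnl2 and Rbm24. Mbnl1 had a mean of 202 TPM on that count and stayed the highest. Rbm20 had a mean of 22.0 TPM and no longer stood apart from Celf1 at 23.3 TPM or Rbfox2 at 19.96 TPM. Rbfox1 and Mbnl2, which had no short models in use in that table, kept their 113 and 94.5 TPM. In the kallisto-layout table short models held 16.0% and 13.6% of Rbfox1 TPM and 0.6% and 2.4% of Mbnl2 TPM.

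Between the libraries the regulators differed little. After scaling for library composition, the log2 ratio of replicate 2 to replicate 1 ranged from -0.16 for Celf2 to 0.04 for Celf1 among the 9 genes whose counts averaged 100 or more over the libraries. None of these 9 reached a log2 ratio of 0.32 in size, beside 7.64% of 9742 genes tested. Among genes averaging 500 counts or more, as all 9 did, 121 of 5091 reached it. At such shares, none of 9 does not set the regulators apart from other genes. The largest shift, that of Celf2, came from 3577 and 3088 counts, with a counting interval of -0.23 to -0.09. Mbnl1 had 20523 and 20218 counts and a ratio of 0.03 (0.00 to 0.06). Qk had 11048 and 9785 counts and a ratio of -0.12 (-0.16 to -0.08).

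7 of the 9 ratios were below 0, beside 49.3% of all genes tested. The intervals of 5 genes (Mbnl2, Celf2, Rbm20, Rbm24 and Qk) lay wholly below 0 and that of Mbnl1 above it. These intervals cover counting error only. The members' median size of ratio was 0.07, against 0.09 for all genes. Scaled by the ERCC spike-in RNA, the median of all genes moved to 0.09 and 4 of the 9 ratios were below 0; scaled by count totals the median of all genes was -0.06 and all 9 were below 0. Each of these scalings shifts every gene by the same amount, so the place of the 9 genes among all genes is the same under each, with 7 of 9 below the median of all genes. Endothelial markers also moved between the libraries, with a summed level of 67.8 TPM in replicate 1 and 51.0 TPM in replicate 2 and 3 of 7 tested markers with a log2 ratio of at least 0.32 below 0, beside 4.35% of all genes. Smooth muscle and pericyte markers summed to 157 and 123 TPM, with 2 of 7 tested past the same limit downward (Rgs5 and Kcnj8). Of 7 fibroblast markers 2 passed it upward (Col1a1 and Col1a2), beside 3.28% of all genes, and the 3 tested Schwann cell markers had a median of -0.20 with none past it. The part of these cell types in the small shifts of the regulators was not tested.

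**Figure D2:**
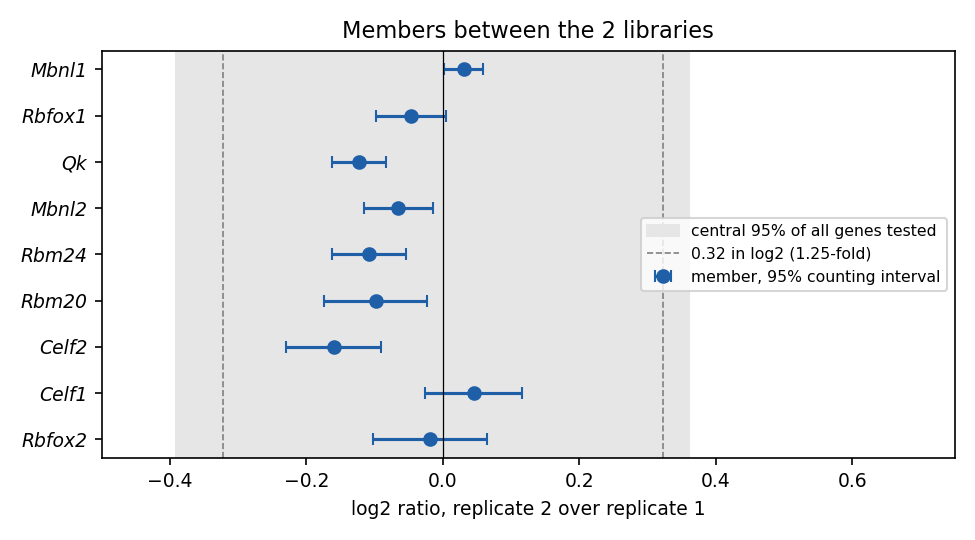
Log2 ratio of replicate 2 to replicate 1 for 9 genes, from scaled counts, with 95% counting intervals as bars. The grey band holds the central 95% of 9742 genes and the dashed lines mark log2 ratios of 0.32 in size. All 9 points lie between -0.16 and 0.04, inside both.

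The regulators were made from many transcripts. The 9 genes at 10 TPM or more had a median of 10 annotated transcripts, against 6 for 4106 expressed coding genes with at least 2. The leading transcript held 50% or more of the TPM in 3 of the 9 (Mbnl2, Rbfox1 and Rbm24), whereas it did in 75.1% of the 4106. The median leading share was 37.1% for the regulators and 68.5% for those genes. Protein-coding transcripts held a median of 69.7% of TPM, against 94.7%. The sets were not matched for number of transcripts. The 2 transcript tables named the same leading transcript for 3 of 9 regulators (Celf2, Rbm24 and Qk), compared with 83.6% of 4105 expressed coding genes. TPM shares of single transcripts are therefore given from both tables.

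Short models weighed heavily in TPM and little in reads. In Rbm20 the 465-base model Rbm20-202 held 37.1% of TPM in each library by RSEM but 4.4% of the reads, and 28.3% and 28.2% of TPM in the kallisto-layout table. Rbm20-203, which encodes 1199 codons, held 32.6% of TPM and 50.7% and 50.8% of the reads by RSEM. In the kallisto-layout table it led the gene, with 38.8% and 38.6% of TPM. In Qk, models shorter than 1000 bases held 44.9% and 55.7% of TPM and 6.8% and 9.9% of the reads by RSEM, and 59.9% and 66.0% of TPM in the other table. Rbm24 was the simplest gene of the group, with 96.9% and 96.5% of its reads in Rbm24-201, its single protein-coding transcript. Of its TPM, that transcript held 77.1% and 75.1% by RSEM and 70.9% and 71.2% in the kallisto-layout table. A pair of short retained-intron models held 22.3% and 24.9% by RSEM and 19.1% and 18.6% in the other table. Counted in reads, the leading transcript held at least 50% in 6 of 9 genes rather than 3. The share of all expressed coding genes was not computed in reads, so the contrast with 75.1% holds for TPM only.

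**Figure D3:**
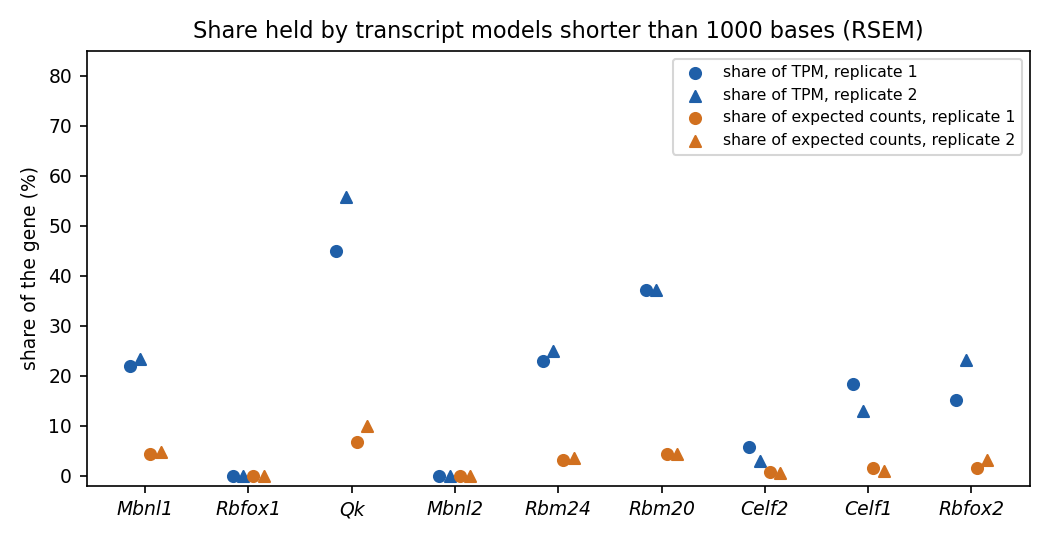
Share of each gene held by transcript models shorter than 1000 bases in the RSEM transcript table, as a percentage of the gene's TPM and of its expected counts, for both libraries. In Qk and Rbm20 the share of TPM is above 37% and the share of counts below 10%.

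Exon use was read from the transcript tables as the percentage of TPM, among models that span an exon, in those that include it. Models in which an exon with other ends overlaps it were left out of that percentage. In all, 22 exons of the 9 genes were between 5% and 95% included in at least 1 table. Whole coding exons made up 17 of them, of which 7 had a length divisible by 3. The libraries differed by a median of 1.92 percentage points and the tables by a median of 8.54, and the difference between tables was the larger in 16 of 22. The choice of table thus moved most of these values more than the change of library did.

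**Figure D4:**
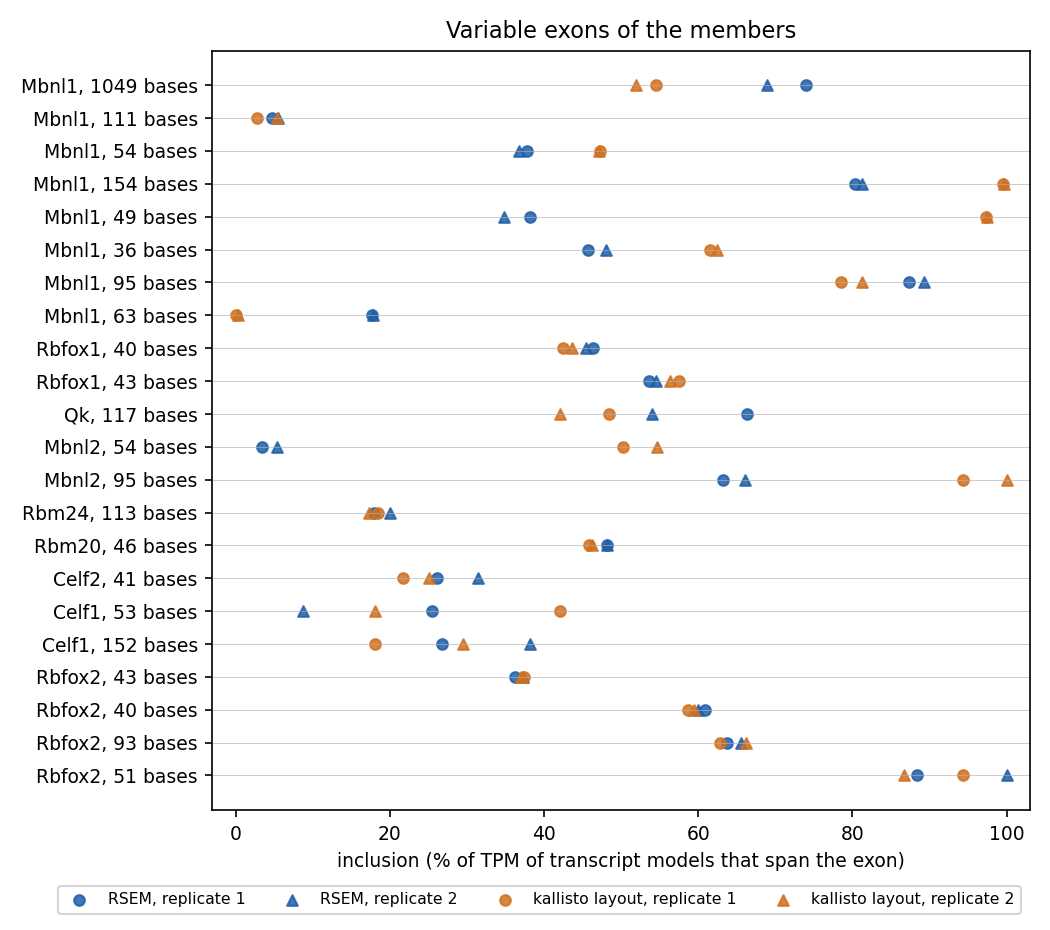
Inclusion of the 22 variable exons in percent of the TPM of spanning models that include or wholly skip the exon. Libraries are circle and triangle, and tables are blue for RSEM and orange for kallisto layout. Symbols of 1 colour lie close together for most exons, while blue and orange are farthest apart for the 49-base exon of Mbnl1, followed by both Mbnl2 exons.

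In Mbnl1, the 54-base exon, known to favour nuclear localisation and to be used more in fetal than in adult muscle, was included at 37.7% in replicate 1 and 36.8% in replicate 2. The kallisto-layout table gave 47.2% and 47.1%, and models with both ends annotated gave 38.6% and 35.0% from RSEM. It was thus skipped in more than 50% of Mbnl1 transcripts in every one of these estimates. The leading RSEM transcripts differ at this exon. Mbnl1-214 includes it and held 18.3% and 16.5% of TPM by RSEM and 14.3% and 13.4% in the kallisto-layout table. Mbnl1-201 skips it and held 17.6% and 17.5%, and 11.8% and 10.7%. In the kallisto-layout table the leading model was Mbnl1-221, at 17.7% and 18.2% (10.9% and 11.9% by RSEM), a model of 1553 bases with an end not found.

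A 36-base exon of Mbnl1 (chr3:60621423-60621458, +) follows the opposite pattern in those transcripts, being present in Mbnl1-201 and absent from Mbnl1-214. Its inclusion was 45.7% and 48.0% from RSEM and 61.6% and 62.4% from the kallisto-layout table, so the tables fell on different sides of 50%.
Mbnl1 36-base exon: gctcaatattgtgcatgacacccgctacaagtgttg
The 95-base exon that follows it, whose length shifts the reading frame, was mostly included, at 87.3% and 89.3% from RSEM and 78.6% and 81.2% from the kallisto-layout table.

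The widest gap between tables, 60.9 points, was at a 49-base exon of Mbnl1 (chr3:60615725-60615773, +), which shares its 3′ end with a 154-base exon. It was included at 38.2% and 34.9% from RSEM and 97.3% and 97.5% from the kallisto-layout table. The models compared for it summed to 49.2 TPM in replicate 1 by RSEM and 22.5 TPM by the other table. Those compared for the 154-base exon summed to 155 and 148 TPM. Mbnl1-212 held 11.3% and 11.0% of the gene's TPM by RSEM and 0.0% and 0.2% in the other table. With models of the 49-base exon left out in turn, the longer 154-base exon was included at 80.4% and 81.3%, and at 99.6% and 99.7%. The percentages of these exons thus have different bases and cannot be set side by side.

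In Mbnl2 the tables also disagreed widely. Its 54-base exon was included at 3.5% and 5.4% in the RSEM table but at 50.2% and 54.6% in the kallisto-layout table. The inclusion form Mbnl2-201 held 0.6% and 3.2% of the gene's TPM in the former and 44.3% and 51.6% in the latter. The skipping form Mbnl2-204 held 59.7% and 60.5% against 45.1% and 41.4%. Every base of Mbnl2-204 is also in Mbnl2-201, which has 2162 further bases. Mbnl2-205, annotated without a coding sequence, held 35.9% and 32.9% of TPM in the RSEM table and 5.5% and 0.0% in the other. The exon's level in this muscle could not be settled from these tables.

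Rbfox1 carried both mutually exclusive exons at similar levels. The 43-base muscle exon was included at 53.6% and 54.5% and the 40-base exon at 46.4% and 45.5% in the RSEM table. The kallisto-layout table gave 57.5% and 56.4% for the former and 42.5% and 43.6% for the latter. That table took the 43-base exon from Rbfox1-203, at 41.5% and 42.8% of TPM, and from Rbfox1-206, a 558-base model with an end not found, at 16.0% and 13.6%. Without models of unknown end its values were 49.4% and 49.5% for the 43-base exon and 50.6% and 50.5% for the 40-base exon, so the order of the exons is not settled. Rbfox1-203 and Rbfox1-201, the transcripts behind the RSEM values, also differ elsewhere, with 283 and 1937 bases of their own, so the shares do not rest on the exon alone. In reads the order was reversed, Rbfox1-201 holding 66.1% and 65.3%, since it is 3061 bases long and Rbfox1-203 is 1407. All 7 listed neuronal markers were below 1 TPM, with a sum of 1.92 and 1.37 TPM. Which cells the 40-base form came from was not tested.

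In Rbfox2 the 40-base exon was the more used in both tables. It was included at 60.9% and 59.9% and the 43-base exon at 36.3% and 37.3% from RSEM, and the kallisto-layout table gave 58.6% and 59.5% for the former and 37.4% and 37.0% for the latter. The 43-base form was read almost wholly from Rbfox2-207, a model of 1041 bases that held 29.9% and 28.7% of TPM but 7.6% and 7.8% of the reads by RSEM, and 31.0% and 27.6% of TPM in the other table. That model also lacks the 93-base exon that encodes part of the RNA recognition motif, an omission known to give a form with reduced RNA binding. The 93-base exon (chr15:77105577-77105669, −) was included at 63.7% and 65.6% from RSEM and 62.8% and 66.2% from the kallisto-layout table.

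In Rbm20 and Celf2 a frame-shifting exon appeared only in a model annotated for nonsense-mediated decay, the pathway that degrades mRNAs with premature stop codons. These exons are shown because each separates the decay form from the main coding form. In Rbm20 it was 46 bases long (chr19:53852354-53852399, +), and in Celf2 41 bases (chr2:6554280-6554320, −).
Rbm20 46-base exon: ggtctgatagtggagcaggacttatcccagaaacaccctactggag
Celf2 41-base exon: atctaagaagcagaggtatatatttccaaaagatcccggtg
The Rbm20 exon was included at 48.2% and 48.1% from RSEM and 45.9% and 46.3% from the kallisto-layout table. Its model, Rbm20-201, held 44.9% and 44.8% of the gene's reads. The Celf2 exon was included at 26.2% and 31.5% from RSEM and 21.7% and 25.1% from the kallisto-layout table, its model Celf2-228 holding 11.8% and 15.2% of the reads. Rbm20-201 and Rbm20-203 differ by 1759 and 1988 bases of their own, so the share rests on more than the exon. Both decay models are annotated with an end not found, and without such models inclusion of either exon was 0% in both tables, no including model being left. Leaving out such models moved 11 of the 22 RSEM inclusion values by more than the spread between libraries.

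Of the 9 genes at 10 TPM or more, Celf1 had the widest difference between libraries in a transcript share. Celf1-205 held 26.4% of TPM in replicate 1 and 0.0% in replicate 2, while Celf1-201 held 17.4% and 30.8% and Celf1-206 held 11.3% and 26.04%. In the kallisto-layout table Celf1-205 held 22.4% and 2.3%, Celf1-201 14.0% and 24.2%, and Celf1-206 14.8% and 27.4%. Celf1-205 and Celf1-206 differ by 8 and 245 bases of their own, and Celf1-205 and Celf1-204 by only 12 and 3. The deposited posterior SD of the Celf1-205 count was 224 reads in replicate 1. The gene's own level hardly moved, with 3268 and 3252 counts. Its 53-base noncoding exon was included at 25.5% and 8.8% from RSEM, the widest gap between libraries among the 22 exons. In that table only Celf1-213, a noncoding model of 478 bases, gave inclusion. It had 46.92 and 19.04 counts, with posterior SDs of 10.73 and 9.5, and 1.44% and 0.59% of the gene's reads. The gap thus rests on few reads of a short model, and a shift in exon use cannot be read from it.

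Qk encodes proteins that share the RNA-binding domain and differ in the last residues, which set their place in the cell: QKI-5 is nuclear, and QKI-6 and QKI-7 are largely cytoplasmic. The models were grouped by stop codon. The stop that gives 319 codons, as in QKI-6, was used by 57.6% and 56.5% of the TPM of models with a stop (57.1 ± 0.72%, SD, n = 2). The stop that gives 341 codons, as in QKI-5, was used by 32.6% and 35.0% (33.8 ± 1.73%), and that of 325 codons, as in QKI-7, by 9.8% and 8.4% (9.11 ± 1.00%, both SD, n = 2). The order was the same in the kallisto-layout table, at 58.1%, 28.6% and 13.3%, and in reads, where the first and second were closer at 47.9% and 43.0%. 1 of the transcripts ending at the QKI-6 stop, Qk-202, is annotated for nonsense-mediated decay and held 19.5% and 16.9% of the gene's TPM by RSEM and 16.1% and 14.95% in the other table. The lead of that stop rests on Qk-202. Its other model, Qk-206, held 12.2% and 8.2% by RSEM, below Qk-204 of the QKI-5 stop at 17.9% and 15.5%. Qk-206 was also lower in the kallisto-layout table (7.3% and 4.8% against 11.2% and 9.97%) and in reads (16.7% and 13.2% against 38.8% and 39.9%). Qk-203 and Qk-205, without an annotated stop, were left out of the grouping and held 44.9% and 55.7% of TPM by RSEM.

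Other splicing genes put these levels in context. Of 6 paralogs of the members, 1 was at 10 TPM or more, Rbm38, the paralog of Rbm24, at 87.5 and 78.5 TPM (83.0 ± 6.34, SD, n = 2). Celf3, Celf4, Celf5 and Celf6 were at most 0.17 TPM in either library. SR proteins, which bind exonic enhancers, reached 10 TPM in 9 of 13 with a median of 12.8 ± 1.96 TPM (SD, n = 2), led by Srsf5 at 48.1 ± 2.72, Srsf2 at 31.2 ± 1.68 and Srsf1 at 24.6 ± 2.90 TPM.

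The hnRNP proteins, often repressors of exons, reached 10 TPM in 17 of 20 with a median of 33.8 ± 1.89 TPM (SD, n = 2). Hnrnpa2b1 at 129 ± 8.32 and Hnrnpk at 108 ± 0.62 TPM led them, followed by Hnrnpa3 at 50.1 ± 2.77 TPM. Of 31 other regulators 14 were at 10 TPM or more, led by Fxr1 at 190 ± 10.4, Pcbp2 at 161 ± 15.7 and the helicase Ddx5 at 109 ± 6.75 TPM. Mbnl1 thus lay above every gene of these lists. By the same limit of 0.32 on the log2 scale, 1 of 12 SR proteins tested was lower (Srsf9, 164 and 123 counts), 0 of 20 hnRNP proteins and 1 of 25 other regulators (Nova1, 149 and 105 counts), against 4.35% of all genes, and none was higher. Srsf9 and Nova1 were named after their values were seen.

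**Figure D5:**
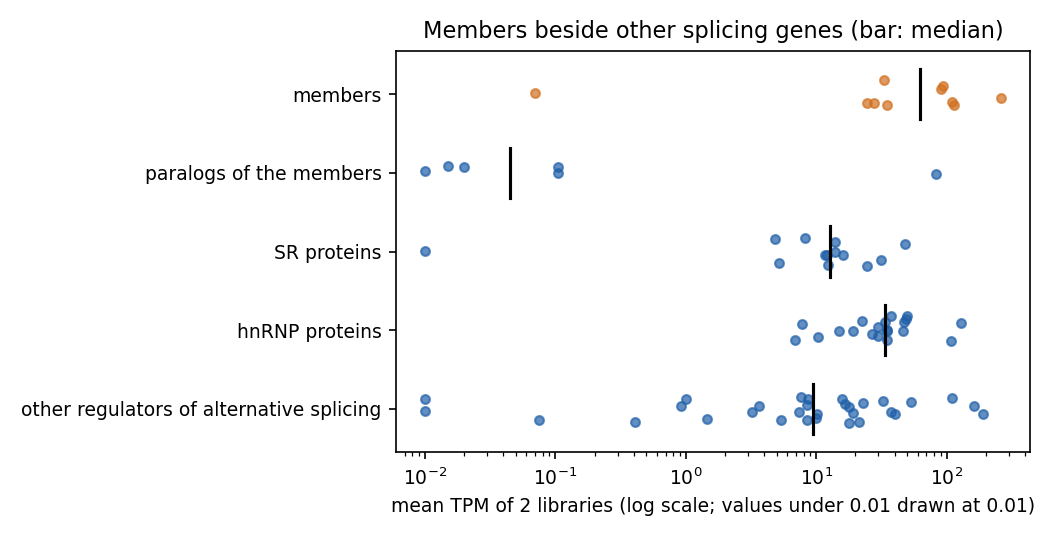
Mean TPM of 2 libraries (log axis) for each of the 10 members and for the genes of 4 lists of other splicing genes. Points are genes and bars are list medians; the members' bar stands at 62.9 TPM and that of the hnRNP proteins at 33.8 TPM.

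All 30 listed genes whose muscle splicing the members are known to control were at 10 TPM or more, with a median of 237 ± 4.08 TPM (SD, n = 2). Troponin T Tnnt3 at 17065, tropomyosin Tpm1 at 12340 and the calcium pump Atp2a1 at 11625 TPM were the highest. None of the 30 reached a log2 ratio of 0.32 in size between libraries, beside 7.64% of all genes tested. Among genes averaging 500 counts or more, as all 30 did, 121 of 5091 reached it. In 24 of them 233 exons were variable, 207 with a length divisible by 3. The exons that follow were named after their values were seen.

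At 3 exons known to respond to MBNL proteins, use lay far from 50%, though not all on the same side. Whether each value is the one that MBNL proteins favour was not tested. The 79-base exon of the chloride channel gene Clcn1, whose retention in myotonic dystrophy causes myotonia, was included at 3.3% and 2.7% from RSEM and 7.7% and 5.4% from the kallisto-layout table. The 57-base exon of the calcium channel gene Cacna1s was included at 99.7% and 100%, and at 92.1% and 92.9% in the other table. The 36-base exon of the insulin receptor gene Insr was included at 13.9% and 15.8%, and at 16.2% and 19.2%. Each of these exons stayed on its own side of 50% in both tables and both libraries.

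Other targets were mixed. The 123-base exon of Nfix, a nuclear factor that sets late fetal gene use, was included at 50.8% and 51.1% from RSEM and 66.4% and 65.2% from the kallisto-layout table. Mef2d, a muscle transcription factor, used its 138-base exon at 72.0% and 70.7%, and at 72.2% and 70.5% in the other table, the alternative 135-base exon making up the rest. In Tnnt3 the pair of 41-base exons stood at 58.9% and 59.9% for the upstream exon and 41.0% and 40.1% for the downstream one. The kallisto-layout table gave 76.4% and 78.9% for the upstream exon, a wider split in the same order.

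The libraries held 35163970 and 35412240 expected counts on genes, of which the 10 regulators took 0.178% and 0.166%. The deposited posterior SD of each member's gene count was 0, so no reads were divided between a member and another gene. The counts of the libraries differed by more than counting noise, with a chi-square of 8.99 per degree of freedom over 14370 genes. Its expected counts came from count totals, not scaled for library composition, so a difference in composition is part of that value. Fibre markers had a median of 12275 ± 440 TPM (SD, n = 2), against 43.3 for fibroblast, 6.60 for smooth muscle and pericyte, 5.27 for endothelial, 4.28 for leukocyte, 3.56 for Schwann cell and 0.96 for satellite cell markers. Cardiac markers had a median of 0.52 TPM. The members are expressed in several of these cell types, and in bulk tissue a change in cell number cannot be told apart from a change in RNA per cell.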

How the data were processed

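Total RNA of gastrocnemius was measured in 2 libraries made, per the labels, from 300 ng RNA with a directional kit, reduced ribosomal RNA and ERCC spike-ins; builds are mm10 and GENCODE M21 per the labels and file headers, and for the aligner the sources used here name none. Deposited gene and transcript tables hold the authors' expected counts and TPM in RSEM layout, and a further deposited transcript table holds estimated counts and TPM in kallisto layout, summed here per gene (86 genes have no entry there). The strand setting of the counting is not given; 6 members overlap 17 other genes, the highest of which, Gm37589, had 221 and 239 counts.

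Expected counts were rounded, and log2 ratios used TMM factors (edgeR 4.0.16, R 4.3.3), a prior of 0.5 counts and genes averaging 100 counts or more, with exact binomial 95% intervals. Reads are not independent molecules, so intervals cover counting error only. DESeq2 1.42.0 size factors, count totals, spike-in totals, other minimums, another prior, the kallisto-layout table, each library alone, long models, complete models and read shares were alternatives; the last 3 were chosen after seeing the data. Python 3.11.15, matplotlib 3.10.9, scipy 1.17.1, numpy 2.4.6 and pandas 2.3.3 were used. Libraries were also simulated with counting noise only, with 9722 genes in this step. There, 17 of 35 genes changed 1.25-fold and 36 of 38 changed 1.5-fold passed 1.25-fold (0.32 on the log2 scale). So did 142 of 9581 unchanged genes. The real libraries differed by more than counting noise, so these rates do not describe them.

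The members and lists were chosen with earlier results of these data known. Named were all members, their transcripts at 5% of TPM or more that bear on a result, the 3 highest genes of each list, and any gene of the splicing lists averaging 100 counts or more whose log2 ratio reached 0.58 either way (none did). Marker lists are given by counts and sums; the pericyte and fibroblast markers named were chosen after their values were seen. An exon entered where spanning models summed to 1 TPM. Likeness of pattern between genes was not measured, since 2 libraries of 1 group give none.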

Additional observations from a re-analysis of the deposited data

How the results depend on the processing

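The count of 9 genes at 10 TPM was the same with minimums of 5 and 20 TPM, in the kallisto-layout table, in either library alone and over long models. None of the 9 members averaging 100 counts reached a log2 ratio of 0.32 in size under any scaling, prior or table run; Mbnl3, with 8 and 5 counts, was not counted, and its ratio was -0.58, and 0.49 in the kallisto-layout table. Of all genes, 744 passed; with no count minimum 9804 did, with a minimum of 10 counts 3051 and with 500 counts 121, more or fewer genes being tested. Of the genes that passed, 57.0% were lower in replicate 2, against 76.6% with count totals and 23.1% with spike-in totals. Leading transcripts held 50% in 3 genes by TPM, 2 in the kallisto-layout table and 6 by reads, the last without a share of all genes beside it. The tables shared a leading transcript in 3 genes on the mean and in 4 in each library alone. By the kallisto layout, 18 of 22 exon values, 8 of 9 leading shares and 6 of 10 levels moved by more than the spread between libraries; over complete models 11 of 22 exon values did; the cause was not tested. With 8 and 5 counts, depth limits Mbnl3. No paired analysis was possible because the samples form 1 group.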
